A study of Mus musculus with 12 samples.

Results

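The amyloid precursor protein gene *App*, its relatives *Aplp1* and *Aplp2*, and 6 genes of the enzymes that cut their proteins (*Adam10*, *Adam17*, *Bace1*, *Psen2*, *Ncstn* and *Aph1a*) were followed across cortical RNAseq of WT and *Gde2*KO mice. These 9 genes were chosen by symbol from 36047 genes, and all 9 passed the filter on low values in every comparison. The study sequenced polyadenylated RNA from cortex in 12 samples, 3 in each of 4 groups, and p-values measure the spread between these samples. The groups were WT at 4 months, *Gde2*KO at 4 months, WT at 19 months and *Gde2*KO at 19 months. *Gde2*KO animals were *Gde2*-/- mice, which carry the mutation in every cell type, and the study used males and females. The part of the gene that was deleted is not given in the sources used here. The 4-month libraries served to look for early pathway changes and the 19-month libraries to look for splicing changes. The 19-month libraries carry no replicate number in the files and are called A, B and C.

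APP and its relatives are single-pass membrane proteins of neurons and other cells that are shed from the surface by proteases. Cutting by an α-secretase, mainly ADAM10 in neurons and also ADAM17, releases the ectodomain and destroys the amyloid-β sequence, whereas cutting by the β-secretase BACE1 starts the path to amyloid-β. The remaining stub is cut within the membrane by γ-secretase, a complex of a presenilin (PSEN2 is one of them), nicastrin, an APH1 subunit and PEN-2. GDE2 is a surface enzyme that cuts the glycosylphosphatidylinositol anchor of some membrane proteins, among them the ADAM10 inhibitor RECK.

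Each library is described by normalized counts, which are estimated counts divided by a size factor for the library, and by TPM, which also take transcript length into account. The libraries held 46434270 to 59728494 estimated reads at 4 months and 3707928 to 44604721 at 19 months, where WT A (6734475) and *Gde2*KO A (3707928) were shallow. *Gdpd5*, the gene that encodes GDE2, stood at 684.5, 702 and 1200 normalized counts in 4-month WT and at 417, 585 and 403 in 4-month *Gde2*KO libraries. At 19 months it stood at 1065, 1129 and 952 in WT and at 440.5, 456 and 560.1 in *Gde2*KO. All *Gde2*KO libraries were below all WT libraries of their age in normalized counts, with log2 fold changes of -0.85 at 4 months (limma adjusted p = 0.463) and -1.11 at 19 months (limma adjusted p = 0.0111), and reads of the locus were still counted in the knockout. In TPM the 4-month groups overlapped, at 12.3, 12.7 and 24.4 in WT and 9.34, 14.9 and 8.87 in *Gde2*KO. None of the 6 neuronal markers was at 0 in any library. The summed normalized count of 6 hippocampal markers was 13328 and 12075 in 4-month WT 1 and 2 against 1151 in WT 3 and 1096 to 1830 in 4-month *Gde2*KO, and that of 6 striatal markers was 3394 and 2660 against 41705 and 22987 to 57418. *Gde2*KO 3 of 4 months stood apart in its summed TPM (1472299, against 887748 to 1103966 in the other libraries).

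*App* and *Aplp1* were the most abundant of the 9 genes per length, and *Adam17* the least (levels in TPM). In 4-month WT cortices *App* had a mean of 997 ± 18 TPM (SD, n = 3) and *Aplp1* 987 ± 67.4, and their ranges overlapped, followed by *Aplp2* at 405 ± 48.7. *Bace1* (52.5 ± 2.8) and *Aph1a* (49.2 ± 1.6) overlapped in their ranges, as did *Ncstn* (41.6 ± 3.9) and *Adam10* (41.2 ± 2.0). *Psen2* (19.4 ± 2.2) and *Adam17* (7.87 ± 0.36) stood below these without overlap. The same steps from *Aplp2* to *Bace1* or *Aph1a* and on to *Psen2* and *Adam17* were present in all 4 groups. At 19 months *App* and *Aplp1* no longer overlapped, with 1096 ± 26.9 against 907 ± 21.2 TPM in WT and 1115 ± 39.7 against 976 ± 10.8 in *Gde2*KO. *Adam10* at 19 months (32.8 ± 1.2 TPM in WT and 34.5 ± 2.1 in *Gde2*KO) lay below *Bace1*, *Aph1a* and *Ncstn* without overlap. The α-secretase transcripts together held 40.6 to 50.4 TPM per library and the 3 γ-secretase members 99.6 to 119, while the APP family held 2354 to 2768.

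Of the 68 annotated transcripts of the 9 genes, 32 held a mean of at least 5% of their gene's TPM in some group. Alternative exons are shown here because they separate the named protein forms of each gene: 6 exons of at least 30 bases were kept in some complete coding transcripts and skipped in others, with at least 1% of the TPM on both sides. *App* (ENSMUSG00000022892.11, chromosome 16 of GRCm38, 84949685 to 85173766, minus strand) has 3 of them. Exon 7 encodes the Kunitz protease inhibitor domain, a domain that neurons mostly leave out of APP, and exons 8 and 15 are short exons of the ectodomain that some transcripts skip. Exons are numbered in the longest coding transcript of each gene, and capitals mark the alternative exon and lower case the 15 bases of the neighbouring exons in the spliced transcript, read 5′ to 3′ on the gene's strand.
App exon 7, 168 bases, minus strand, chr16:85043576-85043743: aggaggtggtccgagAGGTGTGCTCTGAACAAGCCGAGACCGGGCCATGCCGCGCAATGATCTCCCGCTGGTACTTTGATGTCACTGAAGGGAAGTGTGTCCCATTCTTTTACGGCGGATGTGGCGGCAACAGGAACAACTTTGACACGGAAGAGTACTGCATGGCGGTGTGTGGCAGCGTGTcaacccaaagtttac
App exon 8, 57 bases, minus strand, chr16:85040251-85040307: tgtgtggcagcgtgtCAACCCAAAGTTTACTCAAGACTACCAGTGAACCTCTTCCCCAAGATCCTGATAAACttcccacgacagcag
App exon 15, 54 bases, minus strand, chr16:84971408-84971461: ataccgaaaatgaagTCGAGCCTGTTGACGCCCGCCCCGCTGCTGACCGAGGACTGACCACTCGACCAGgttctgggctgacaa

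*Aplp2* (ENSMUSG00000031996.17, chromosome 9, 31149557 to 31211815, minus strand) also has a Kunitz exon of 168 bases. It matched *App* exon 7 at 114 of 168 positions (67.9%) when the exons were set side by side without gaps. *Aplp1* (ENSMUSG00000006651.8, chromosome 7, 30434982 to 30445535, minus strand) had a single complete coding transcript and no such choice.
Aplp2 exon 7, 168 bases, minus strand, chr9:31167561-31167728: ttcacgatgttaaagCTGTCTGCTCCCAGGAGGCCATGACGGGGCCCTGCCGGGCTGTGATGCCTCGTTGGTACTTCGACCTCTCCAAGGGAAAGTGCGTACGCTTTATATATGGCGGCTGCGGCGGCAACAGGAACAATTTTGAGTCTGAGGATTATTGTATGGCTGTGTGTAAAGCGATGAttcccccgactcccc

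Among the enzymes, *Bace1* (ENSMUSG00000032086.12, chromosome 9, 45838580 to 45864399, plus strand) has an alternative exon 6, and *Adam17* (ENSMUSG00000052593.16, chromosome 12, 21323509 to 21373632, minus strand) an alternative exon 7.
Bace1 exon 6, 102 bases, plus strand, chr9:45858400-45858501: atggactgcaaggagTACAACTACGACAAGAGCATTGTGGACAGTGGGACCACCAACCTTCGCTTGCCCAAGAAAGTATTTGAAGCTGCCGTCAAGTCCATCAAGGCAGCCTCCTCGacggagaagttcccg
Adam17 exon 7, 57 bases, minus strand, chr12:21346017-21346073: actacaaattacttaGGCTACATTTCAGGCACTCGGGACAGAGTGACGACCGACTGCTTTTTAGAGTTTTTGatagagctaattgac

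The other members lie on chromosome 9 from 70678997 to 70780229 (*Adam10*, ENSMUSG00000054693.14, plus strand), chromosome 1 from 180227004 to 180263438 (*Psen2*, ENSMUSG00000010609.15, minus strand), chromosome 1 from 172066013 to 172082795 (*Ncstn*, ENSMUSG00000003458.12, minus strand) and chromosome 3 from 95893969 to 95898288 (*Aph1a*, ENSMUSG00000015750.15, plus strand). Exons of 5 members (*App*, *Adam17*, *Bace1*, *Ncstn* and *Aph1a*) overlap an annotated gene on the opposite strand, by 113 bases (*App*, an antisense gene) to 975 bases (*Bace1*, with *Rnf214*). Use of strand in the counting is not given in the sources used here, and reads in these stretches cannot be told apart.

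The first comparison asked whether loss of GDE2 went with other levels of these transcripts at 4 months. None of the 9 genes was called, where a call needs a limma adjusted p under 0.1 and a log2 fold change beyond 0.72 in either direction, against 0.126% of all 19035 genes tested (24 genes). None had an unadjusted p under 0.05 either (2025 of all genes did). The median log2 fold change of the 9 genes was 0.11, as was that of all genes tested. No member had *Gde2*KO and WT libraries that did not overlap, a pattern that 15.4% of all genes showed. In bulk cortex, fewer cells of a type and less RNA per cell cannot be told apart. The hippocampal and striatal marker sums given above set WT 1 and 2 apart from WT 3 and from all *Gde2*KO libraries of 4 months. Tissue content and genotype were thus not separated in this comparison, and the part of tissue content was not tested.

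Of the APP family, *App* stood at 58234, 56191 and 56089.9 normalized counts in 4-month WT libraries 1 to 3 and at 68689, 55538 and 67443 in the *Gde2*KO libraries. *Gde2*KO 1 and 3 were above all WT libraries and *Gde2*KO 2 below them, so the groups overlapped. The log2 fold change was 0.16 (standard error 0.16, 95% interval -0.21 to 0.53, limma adjusted p = 0.629). *Aplp1*, a relative expressed mainly in neurons, followed the same libraries, with 41858, 37975 and 36322 in WT and 46904, 35991 and 46816 in *Gde2*KO (log2 fold change 0.15, limma adjusted p = 0.665). The summed level of the 6 neuronal markers moved with them: it was 218620 and 251606 normalized counts in *Gde2*KO 1 and 3, 177505 in *Gde2*KO 2 and 172048 to 186889 in WT. Its part in the result was not tested. Without *Gde2*KO 2 the log2 fold change of *App* was 0.26 (limma adjusted p = 0.293) and that of *Aplp1* 0.28 (limma adjusted p = 0.283). *Aplp2*, the most widely expressed relative, stood at 14030.4, 16011 and 17374 in WT and 19412, 17596 and 17351 in *Gde2*KO. Only the top WT library reached into the *Gde2*KO range, and the log2 fold change was 0.20 (95% interval -0.12 to 0.52, limma adjusted p = 0.528), or 0.06 against WT 3 alone. With median-of-ratios scaling the log2 fold changes at 4 months were 0.066 (*App*), 0.054 (*Aplp1*) and 0.10 (*Aplp2*). With libraries weighted by how well they fitted they were 0.28, 0.29 and 0.30 (limma adjusted p of 0.0017 to 0.0038), short of the size for a call, in a fit that called 2934 genes.

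Of the α-secretases, *Adam10* stood at 3358, 3420.4 and 3052 normalized counts in 4-month WT and at 3398.5, 3117 and 3658.5 in *Gde2*KO, and the groups overlapped. Its log2 fold change was 0.05 (95% interval -0.23 to 0.33, limma adjusted p = 0.857), or -0.0079 without *Gde2*KO 3. *Adam17*, the enzyme best known for releasing TNF, stood at 565, 516 and 541 in WT and 517, 682 and 567 in *Gde2*KO, where *Gde2*KO 2 and, narrowly, *Gde2*KO 3 lay above the WT range and *Gde2*KO 1 within it. The β-secretase gene *Bace1* stood at 3797, 4051 and 3599.5 in WT and 4155, 3524 and 3630.3 in *Gde2*KO. Its groups overlapped too, with a log2 fold change of -0.02 (95% interval -0.31 to 0.27, limma adjusted p = 0.944), or 0.0057 without *Gde2*KO 3.

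Of the γ-secretase genes, *Psen2*, one of the catalytic presenilins, stood at 573, 563 and 497 normalized counts in 4-month WT and 563, 443 and 580.0 in *Gde2*KO. *Ncstn*, which encodes the substrate-binding subunit nicastrin, stood at 1644, 1660.1 and 1774.5 in WT and 1846, 1651 and 1814 in *Gde2*KO. *Aph1a*, which encodes a scaffold subunit, stood at 1664, 1531 and 1602 in WT and 1723, 1536 and 2125 in *Gde2*KO. In each of the 3 genes 1 *Gde2*KO library or more lay inside the WT range or below it, and *Gde2*KO 3 held the highest value of *Psen2* and *Aph1a*. Log2 fold changes were -0.05 (*Psen2*), 0.06 (*Ncstn*) and 0.15 (*Aph1a*). That of *Aph1a* was 0.03 without *Gde2*KO 3 and 0.057 with median-of-ratios scaling. Over all 9 genes the 95% intervals at 4 months ran from -0.41 to 0.54. The signs of *Adam10*, *Adam17* and *Ncstn* at 4 months turned with gene-level TPM in place of normalized counts, and those of *Bace1*, *Psen2* and *Ncstn* turned without WT 1 and 2.

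**Figure D1:**
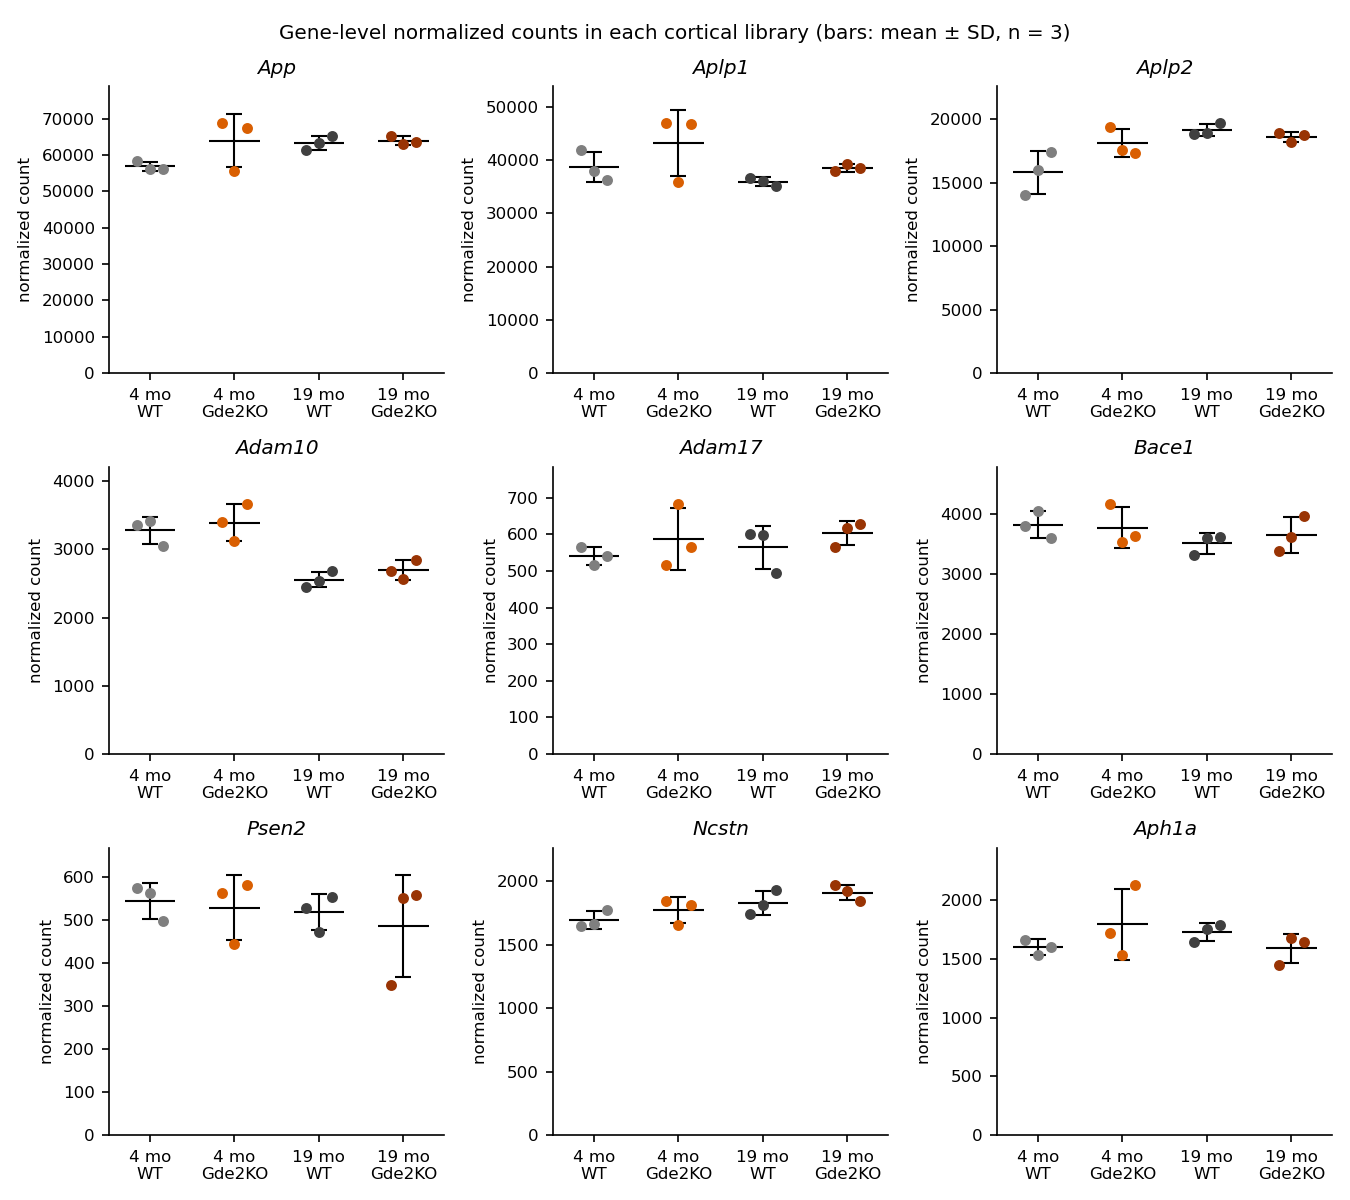
Gene-level normalized counts of the 9 genes (vertical axes, from 0, each gene on its own scale) in the 12 cortical libraries, by group; points are libraries, horizontal lines and bars the mean ± SD of 3. *App* and *Aplp1* show 2 high and 1 low *Gde2*KO library at 4 months, and all 6 *Adam10* values at 19 months (2455 to 2850.0) lie below all 6 at 4 months (3052 to 3658.5).

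The same question was asked at 19 months, where the standard errors of *App* and its relatives were 0.04, against 0.14 to 0.17 at 4 months. None of the 9 genes was called (limma), against 0.0969% of 18583 genes tested (18 genes). *Aplp1* alone had an unadjusted p under 0.05 (1285 of all genes did) and alone had libraries that did not overlap between genotypes, against 14.2% of all genes. The median log2 fold change was 0.06 for the 9 genes and -0.02 for all genes. *Aplp1* stood at 36726, 36033 and 35167 normalized counts in WT A to C and at 37917, 39330.0 and 38474 in *Gde2*KO A to C. Every *Gde2*KO value was above every WT value, with a log2 fold change of 0.10 (standard error 0.04, 95% interval 0.01 to 0.19, a ratio of 1.07), which did not pass the correction (limma adjusted p = 0.711). The neuronal markers had the opposite order, with sums of 189670 to 200938 in *Gde2*KO and 204368 to 212471 in WT. Their part in the value of *Aplp1* was not tested. 

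*App* stood at 61319, 63314 and 65115 normalized counts in 19-month WT and at 65276, 63043 and 63652 in *Gde2*KO. The groups overlapped, and the intervals of *App* and its relatives were the narrowest of the 9 genes (for *App* a log2 fold change of 0.02, 95% interval -0.07 to 0.11, a ratio between 0.95 and 1.08, limma adjusted p = 0.915). *Aplp2* stood at 18799, 18865 and 19658 in WT and 18892, 18181.5 and 18715 in *Gde2*KO (log2 fold change -0.04, limma adjusted p = 0.796), again with overlap. *Adam10* stood at 2455, 2530.0 and 2677 in WT and 2679, 2565 and 2850.0 in *Gde2*KO. Only *Gde2*KO B reached into the WT range, and the log2 fold change was 0.08 (95% interval -0.07 to 0.22, limma adjusted p = 0.757). *Adam17* stood at 600.0, 598 and 496 in WT and 565, 618 and 628 in *Gde2*KO, and *Bace1* at 3305, 3592 and 3620.5 in WT and 3374, 3615 and 3964 in *Gde2*KO. Both overlapped between genotypes, with log2 fold changes of 0.10 and 0.06.

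Of the γ-secretase genes at 19 months, *Psen2* stood at 526.5, 472 and 554 normalized counts in WT and 348, 550.0 and 558.5 in *Gde2*KO. Its low value belongs to *Gde2*KO A, the shallowest library, where it rests on 42 estimated reads, and the log2 fold change turned from -0.12 (95% interval -0.53 to 0.29) to 0.10 without that library. *Ncstn* stood at 1742, 1811 and 1932 in WT and 1965.5, 1921 and 1842.5 in *Gde2*KO (log2 fold change 0.06). *Aph1a* stood at 1642, 1752 and 1785 in WT and 1445, 1677.5 and 1643 in *Gde2*KO (log2 fold change -0.12, limma adjusted p = 0.734). Both genes overlapped between genotypes. At 19 months *Adam17* rested on 68.2 to 879.9 estimated reads and *App* on 7871 to 90320.2.

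**Figure D2:**
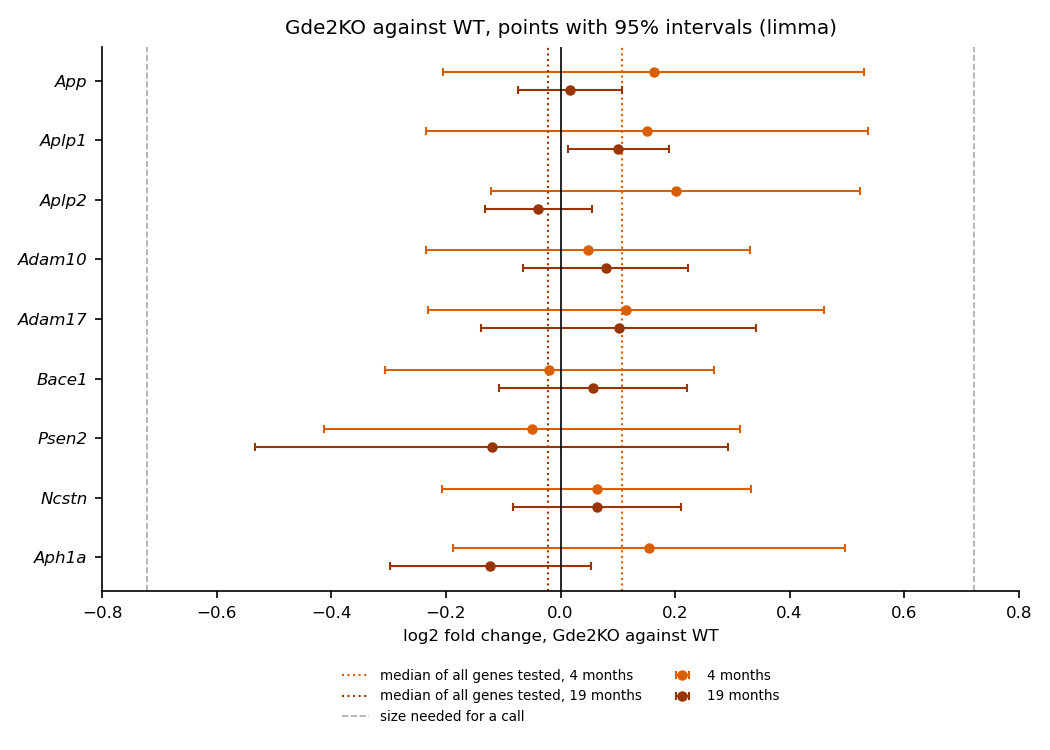
Log2 fold change of each gene in *Gde2*KO against WT cortices (horizontal axis) at 4 and 19 months, points with 95% intervals from limma (n = 3 against 3); dotted lines mark the median of all genes tested and dashed lines the size needed for a call. The 95% interval of *Aplp1* at 19 months (0.01 to 0.19) is the only one that leaves out 0, and no point comes near 0.72.

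Whether the genotype difference itself differed between ages was tested as an interaction over the 12 libraries. None of the 9 genes was called (limma, adjusted p under 0.1), against 0.0480% of 18731 genes (9 genes), and none had an unadjusted p under 0.05 (2408 of all genes did). The interaction ran from -0.28 for *Aph1a* (95% interval -0.64 to 0.08, limma adjusted p = 0.453) and -0.24 for *Aplp2* (95% interval -0.53 to 0.05, limma adjusted p = 0.427) to 0.08 for *Bace1*. With median-of-ratios scaling the median over all genes moved from -0.15 to -0.03. Measured from the median of all genes, the members ran from -0.13 (*Aph1a*) to 0.23 (*Bace1*). When libraries were weighted by how well they fitted, 4 members passed (*App* -0.28, *Aplp1* -0.18, *Aplp2* -0.33 and *Aph1a* -0.24), but so did 8744 of the 18731 genes.

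The second comparison set 19-month against 4-month cortices. *Adam10* was lower at 19 months in both genotypes and *Aplp2* higher in WT, and no member reached the size needed for a call. The call applied to 13.7% of 18731 genes in WT (2565 genes) and to 11.9% in *Gde2*KO (2224 genes). Age cannot be told apart from whatever else separates the 2 sets of libraries, depth included. At an unadjusted p under 0.05 there were 2 members in WT and 1 in *Gde2*KO (6457 and 7032 of all genes).

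*Adam10* in WT went from 3052 to 3420.4 normalized counts at 4 months to 2455 to 2677 at 19 months, and in *Gde2*KO from 3117 to 3658.5 to 2565 to 2850.0. The 6 libraries of 19 months all lay below the 6 of 4 months. The log2 fold change was -0.36 in WT (standard error 0.09, 95% interval -0.55 to -0.16, a ratio of 0.78, limma adjusted p = 0.0186) and -0.33 in *Gde2*KO (standard error 0.09, 95% interval -0.52 to -0.13, a ratio of 0.80, limma adjusted p = 0.0260). It thus passed the adjusted p alone in both genotypes, as did 15.1% of all genes in the lower direction in WT and 24.9% in *Gde2*KO. In *Gde2*KO all genes together had a median of -0.21, which median-of-ratios scaling moved to -0.05; *Adam10* lay 0.12 below that median, and with this scaling its value was -0.16 (limma adjusted p = 0.130). In WT it lay 0.29 below a median of -0.07. Markers of some glia were also lower at 19 months in WT: 5 astrocyte markers summed to 30052 to 52609 at 4 months and 22277 to 24013 at 19 months, and 5 oligodendrocyte markers to 92611 to 117589 and 63989 to 85916. In *Gde2*KO the astrocyte sums overlapped, 28946 to 36486 and 24261 to 32693, while the oligodendrocyte sums were 115582 to 130553 and 77089 to 100339.8. The sums of 5 microglial markers overlapped in both genotypes, 4077 to 5158 and 4387 to 4730 in WT, and 4926 to 6766 and 4293 to 5669 in *Gde2*KO. The sums of 3 oligodendrocyte precursor markers did not overlap, 3667 to 4307 and 2079 to 2552 in WT. In *Gde2*KO they were 3234 to 4212 and 2654 to 2761. Those of 6 striatal markers were 22987 to 57418 and 7233 to 15672 in *Gde2*KO and overlapped in WT. Those of 6 hippocampal markers were 1151 to 13328 and 792 to 1037 in WT and overlapped in *Gde2*KO. Those of 4 endothelial markers rose in WT, 3173 to 3986 and 4116 to 5116. None of these markers was at 0, and their part in the result was not tested.

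*Aplp2* in WT went from 14030.4, 16011 and 17374 normalized counts to 18799, 18865 and 19658, without overlap. Its log2 fold change was 0.28 (standard error 0.09, 95% interval 0.08 to 0.48, limma adjusted p = 0.0569), and 13.1% of all genes passed the adjusted p alone in the higher direction. Without 4-month WT 1 the value was 0.20 (limma adjusted p = 0.219), and leaving out any of 5 of the 6 WT libraries took the adjusted p above 0.1. In *Gde2*KO the log2 fold change of *Aplp2* was 0.04 (limma adjusted p = 0.788), with overlap, and 7.45% of all genes passed in the higher direction. The difference between genotypes is the interaction given above, which did not pass. *App* in WT also separated by age, 56089.9 to 58233.5 against 61319 to 65115 normalized counts (log2 fold change 0.15, limma adjusted p = 0.309). The 6 neuronal markers moved the same way in WT, from 172048 to 186889 to 204368 to 212471 in sum, and their part in the values of *App* and *Aplp2* was not tested. These 3 members of 9 in WT, and *Adam10* alone in *Gde2*KO, had libraries that did not overlap between ages, against 46.0% and 41.2% of all genes. *Bace1* had log2 fold changes with age of -0.12 in WT and -0.05 in *Gde2*KO, and the TPM ratio of *Adam10* to *Bace1* was 0.772 to 0.793 in 4-month and 0.646 to 0.690 in 19-month WT libraries. In *Gde2*KO that ratio overlapped between ages, 0.809 to 1.03 against 0.628 to 0.824. At 4 months the TPM ratio was higher in all *Gde2*KO than in all WT libraries, and at 19 months the genotypes overlapped. In normalized counts the genotypes overlapped at 4 months too. There *Gde2*KO 1 had less *Adam10* (3398 against 3420) and more *Bace1* (4155 against 4051) than WT 2. The ratio was not tested.

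**Figure D3:**
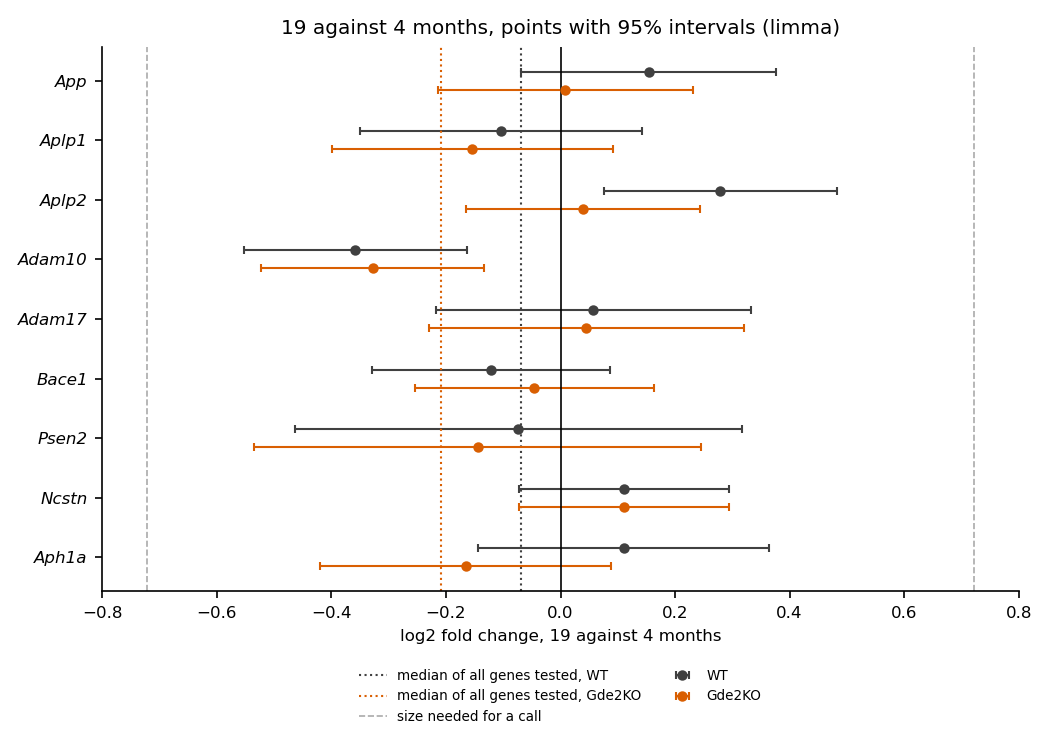
Log2 fold change at 19 against 4 months (horizontal axis) for each gene in WT and in *Gde2*KO cortices, points with 95% intervals from limma (n = 3 against 3 in each genotype); dotted lines mark the median of all genes tested and dashed lines the size needed for a call. The intervals of *Adam10* lie below 0 in both genotypes (-0.55 to -0.16 and -0.52 to -0.13), and that of *Aplp2* lies above 0 in WT (0.08 to 0.48).

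The third comparison asked whether genotype changed which transcripts a gene used. None of the 9 genes was called for transcript usage (limma diffSplice, adjusted p under 0.1 and a shift above 10 points in a transcript's share) at 4 months, against 0.997% of 12235 genes (122 genes), or at 19 months, against 0.171% of 12253 genes (21 genes). Unadjusted, *Aplp1* alone had p under 0.05, at 4 months (1538 of all genes at 4 and 625 at 19 months did). The lowest adjusted p of the 9 genes was 0.353 at 4 months, for *Aplp1*, and 0.979 at 19 months. Without 19-month *Gde2*KO A the adjusted p of *Psen2* was 0.0939, with no transcript's share shifted by more than 10 points, and the same held for *App* at 4 months with transcripts of a mean of at least 20 normalized counts (adjusted p = 0.0771).

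*App* was carried by 1 transcript: App-201, which lacks exons 7 and 8 and keeps exon 15, held between 89.9% and 92.7% of the gene's TPM in each library, with means of 91.4% to 91.8%. *Aplp1*-201 held 98.3% to 98.7% and *Adam10*-201 91.6% to 95.2% on average. *Aplp2* was divided between Aplp2-203 (an incomplete coding transcript that keeps exon 7, means of 34.0% to 38.9%), Aplp2-202, which skips exon 7 (21.6% to 24.0%), Aplp2-201, which keeps it too (8.41% to 11.1%), and the retained-intron transcript Aplp2-207. Aplp2-207 held 16.6% on average in 4-month WT, 17.0% in 19-month WT, 15.4% in 19-month *Gde2*KO and 25.8% in 4-month *Gde2*KO. At 4 months it ranged from 15.4% to 17.7% in WT and from 18.3% to 35.0% (*Gde2*KO 3) in *Gde2*KO, without overlap. *Aplp2* was not called for usage at that age (limma diffSplice). *Bace1* was divided between Bace1-201 with exon 6 (34.3% to 45.7%), Bace1-202 without it (20.1% to 24.8%), a retained-intron transcript and the incomplete Bace1-206, which keeps exon 6. Bace1-206 held 0.894% in 4-month *Gde2*KO 3 and 14.4% to 24.1% in the other 11 libraries.

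*Adam17*, the least abundant member, was scattered: Adam17-201 held 35.0% to 72.9% over the 12 libraries. A processed transcript, Adam17-205, held 37.8% in the shallow 19-month *Gde2*KO A and 0% in all other 19-month libraries, *Gde2*KO and WT alike. Psen2-205 held means of 53.1% to 69.6%, Ncstn-201 63.8% to 72.3%, and *Aph1a* was divided between Aph1a-202 (50.5% to 55.6%) and Aph1a-201 (29.1% to 32.3%). These shares are estimates that divide shared reads among transcripts, and they cover annotated transcripts only.

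**Figure D4:**
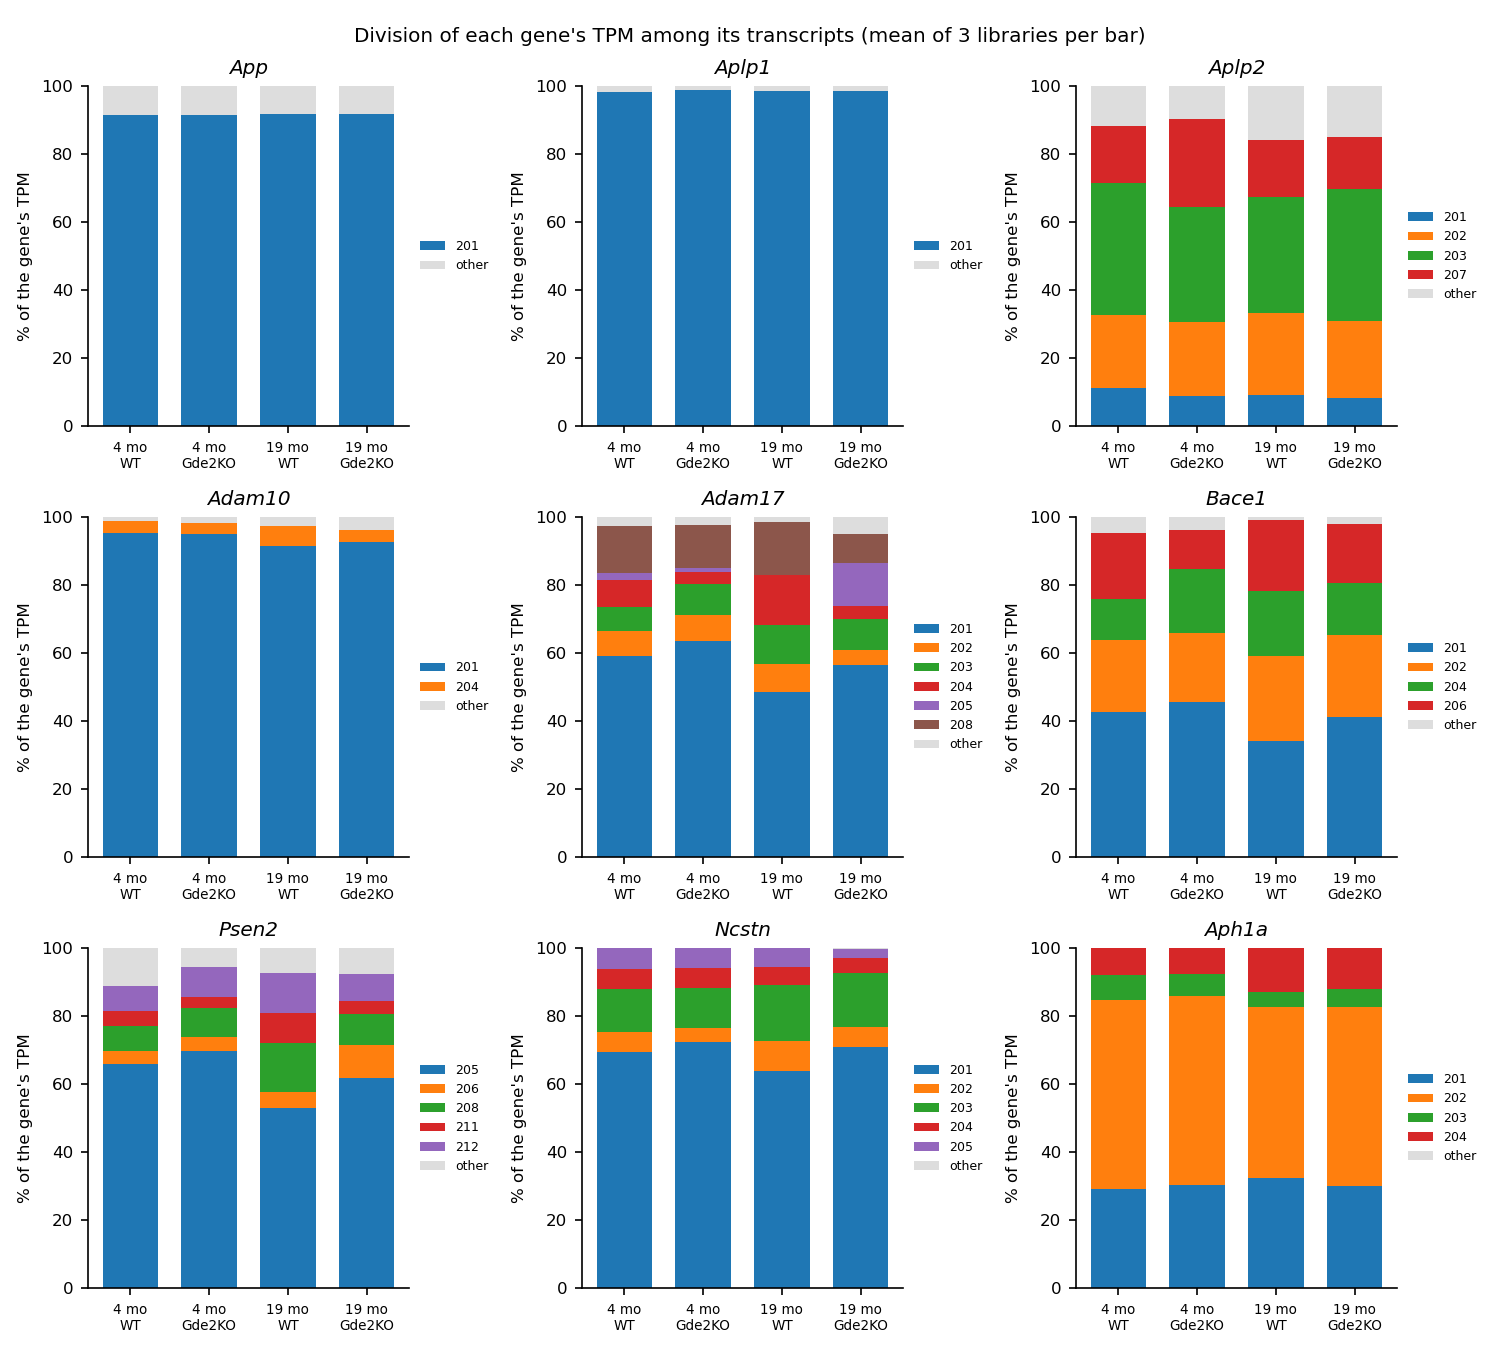
Division of each gene's TPM among its transcripts (vertical axes, mean percent; 3 libraries per bar) in the 4 groups, for transcripts with a mean of at least 5% in some group; colours stand for transcript numbers within a gene. *App*, *Aplp1* and *Adam10* are each mostly 1 transcript (over 90%), while *Aplp2*, *Bace1*, *Adam17* and *Psen2* are divided among several.

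The 6 alternative exons were compared as the share of TPM in complete coding transcripts that keep the exon. *App* exon 7 was kept in 7.69 ± 0.55% (SD, n = 3) of TPM in 4-month WT, 7.59 ± 1.37% in 4-month *Gde2*KO, 7.27 ± 0.48% in 19-month WT and 7.53 ± 0.86% in 19-month *Gde2*KO cortices. Exon 8 was kept in 3.80% to 4.67% on average and exon 15 in 96.3% to 97.0%. The groups overlapped for all 3 exons of *App*, between genotypes at both ages and between ages in WT. Exons 16 and 17, which carry the amyloid-β sequence, were skipped only in App-207, which held at most 0.122% of TPM in any library.

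*Aplp2* exon 7, the Kunitz exon, was kept in 12.4%, 10.9% and 10.1% of TPM in 4-month WT libraries and in 8.97%, 8.52% and 8.95% in 4-month *Gde2*KO. The groups did not overlap, with a difference of -2.33 points. The two-sided exact permutation test gave p = 0.1, the smallest that 3 libraries against 3 allow, and 0.600 after adjustment over the 18 tests of exon shares. With incomplete coding transcripts counted, a choice made after seeing the data, the share among coding transcripts that span the exon was 69.9 ± 0.54% in WT and 66.2 ± 2.0% in *Gde2*KO, a difference of -3.68 points in the same direction. At 19 months the 2 measures differed in sign, -0.83 points for the first (overlapping) and 3.35 for the second. By the second measure the genotypes did not overlap at either age, in opposite directions. At 4 months it was 69.3% to 70.3% in WT and 63.9% to 67.7% in *Gde2*KO, and at 19 months 60.5% to 66.5% and 66.6% to 69.2%. With age in WT the first measure differed by -1.90 points (9.24 ± 0.75% at 19 months, exact permutation p = 0.1, the smallest possible, adjusted p = 0.600).

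*Bace1* exon 6 was kept in 39.8%, 45.6% and 42.6% of TPM in 4-month WT libraries and in 33.3%, 35.0% and 34.5% in 19-month WT. The groups did not overlap (-8.39 points, exact permutation p = 0.1, the smallest possible, adjusted p = 0.600), and among all coding transcripts that span the exon the difference was -5.55 points. Between genotypes the kept share overlapped at 4 months (3.07 points, exact permutation p = 0.3, or -0.75 points among all coding transcripts that span the exon), and at 19 months it was 50.7%, 34.9% and 37.9% in *Gde2*KO, where the high value belongs to shallow library A (6.91 points, exact permutation p = 0.2, or 1.60 points by the second measure). *Adam17* exon 7 was kept in 3.90% to 13.3% of TPM in 10 libraries and listed at 0 in 19-month *Gde2*KO A and C, and the lowest exact permutation p of its 3 tests was 0.6.

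**Figure D5:**
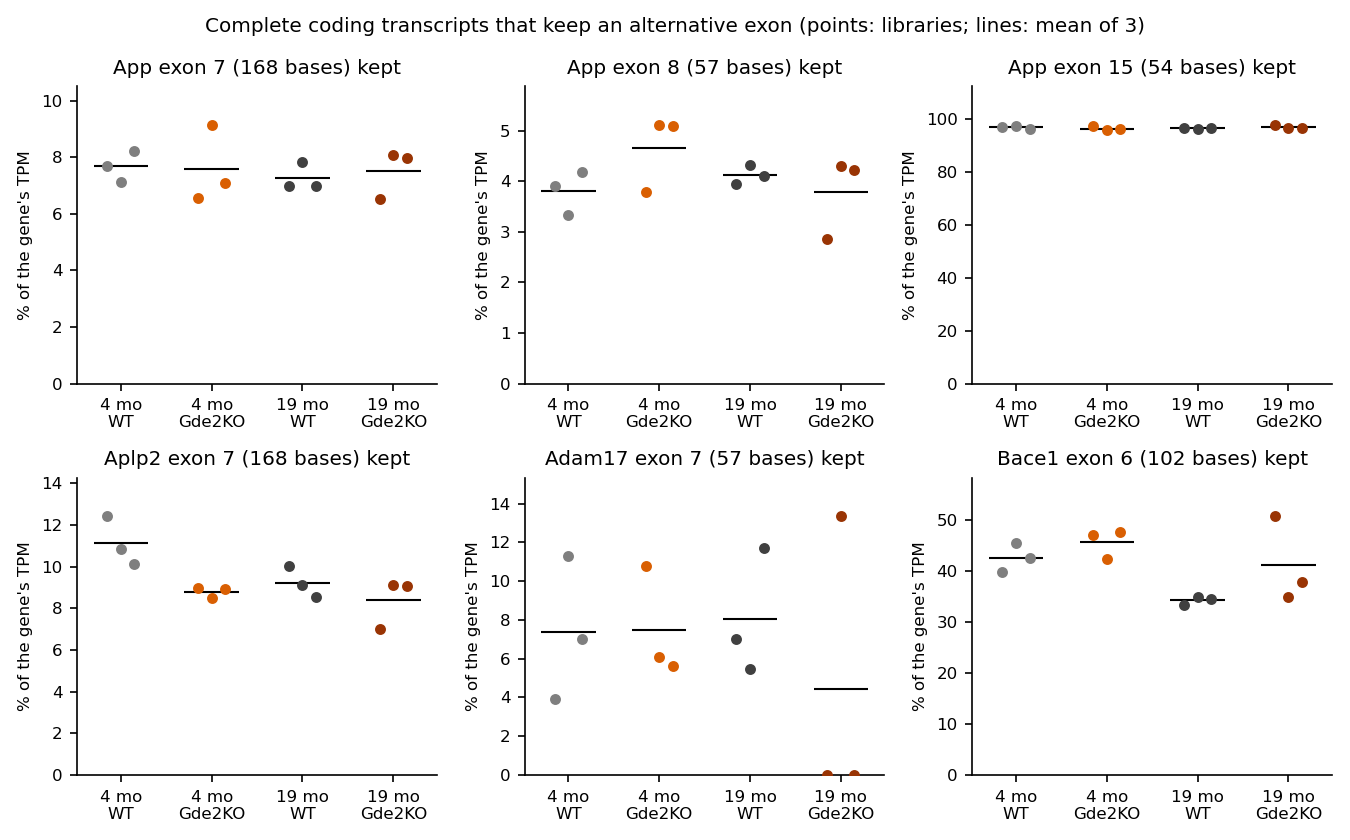
Share of a gene's TPM in complete coding transcripts that keep an alternative exon (vertical axes, percent, from 0, each exon on its own scale) in the 12 libraries by group; points are libraries and lines means of 3. Only *Aplp2* exon 7 separates the genotypes at 4 months (10.1% to 12.4% in WT, 8.52% to 8.97% in *Gde2*KO), and *Bace1* exon 6 separates the ages in WT (39.8% to 45.6% and 33.3% to 35.0%).

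The wider pathway was described with 5 lists, of other secretase genes, regulators of the secretases, APP adaptors and sorting factors, enzymes and carriers that remove amyloid-β, and other substrates of the secretases. None of the list genes was called between genotypes at 4 months (0 of 91 tested, 13 at an unadjusted p under 0.05), at 19 months (0 of 93, 18 at an unadjusted p under 0.05) or for the interaction (0 of 92, 17 at an unadjusted p under 0.05) by limma. At an unadjusted p under 0.05 these are 14.3%, 19.4% and 18.5% of the list genes, beside 10.6%, 6.91% and 12.9% of all genes, and since the lists were chosen with earlier results of these data known, nothing is read from the shares. List medians at 4 months ran from -0.02 (other substrates) to 0.13 (other secretase genes), beside 0.11 for all genes, and at 19 months from -0.04 (regulators) to 0.10 (other secretase genes), beside -0.02.

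The list genes of smallest p are given by value. Among the other secretase genes at 4 months these were *Psenen*, which encodes the γ-secretase subunit PEN-2 (log2 fold change 0.60, limma adjusted p = 0.469), *Bace2*, the close relative of *Bace1* (0.41), and *Adam9* (0.20). *Psenen* spanned 834 to 1085 normalized counts in WT and 1044 to 2233 in *Gde2*KO, with overlap. Among regulators they were *Rtn4*, a reticulon of the family that binds BACE1 (0.47), and the tetraspanins *Tspan14* (0.32) and *Tspan5* (0.28), which carry ADAM10 to the surface. Among adaptors and sorting factors the values were lower in *Gde2*KO for *Lrp8*, *Lrp10* and the sorting receptor *Sorl1* (-0.36, -0.36 and -0.34). Among the genes of removal they were *A2m* (-0.87), *Serpina3n* (-1.91) and the insulin-degrading enzyme gene *Ide* (0.55). *Serpina3n*, an acute-phase gene of astrocytes, spanned 427 to 4174 normalized counts within 4-month WT alone. Among other substrates they were *Cx3cl1* (0.48), *Hbegf* (0.52) and *Dcc* (-0.48), all with limma adjusted p of 0.463.

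At 19 months the smallest adjusted p of any list gene was 0.351 (limma), for *Scn2b*, a sodium channel subunit cut by BACE1, at 8784 ± 472 normalized counts in WT and 7270.3 ± 337 in *Gde2*KO (SD, n = 3, log2 fold change -0.27). The others of that list were *Tgfa* (0.38) and the BACE1 substrate gene *Sez6* (0.25). *Adam9* (-0.16), *Bace2* (0.41) and *Aph1b* (0.11) led the other secretase genes, and *Furin*, whose product activates ADAM proteases (0.16), *Tspan14* (-0.18) and *Tspan5* (-0.11) the regulators. *Lrp1b* (0.38), *Apba1* (0.14) and *Apba2* (-0.13) led the adaptors, and the amyloid-β carrier gene *Clu* (0.19), *Abca1* (0.28) and *Serpina3n* (0.47) the genes of removal. *Reck*, the GPI-anchored inhibitor of ADAM10, stood at 378, 407 and 457 normalized counts in 4-month WT and 356, 488 and 400.4 in *Gde2*KO, and at 522, 544 and 412 in 19-month WT and 406, 568 and 471 in *Gde2*KO. Its groups overlapped at both ages, with log2 fold changes of -0.01 (limma adjusted p = 0.987) and -0.04 (limma adjusted p = 0.961).

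With age, 14 of 92 list genes were called in WT and 5 in *Gde2*KO. These are 15.2% and 5.43% of the list genes, beside the 13.7% and 11.9% of all genes given above. At an unadjusted limma p under 0.05 there were 48.9% and 39.1% of the list genes, beside 34.5% and 37.5% of all genes. As with genotype, nothing is read from these shares. Of the called genes 6 in WT and 2 in *Gde2*KO lay among the 28 other substrates tested, and all of those were lower at 19 months. Over all 18731 genes tested, 1386 of the 2565 genes called in WT and 1746 of the 2224 called in *Gde2*KO were lower. The substrates that fell in WT were the netrin receptor gene *Dcc* (-1.77), *Chl1* (-1.01), *Tgfa* (-0.85), *Sez6* (-0.74), *Epha4* (-0.74) and *Nlgn1* (-0.73), with limma adjusted p of 0.000335 to 0.0511. In *Gde2*KO *Dcc* (-0.81) and *Tgfa* (-0.77) fell. *Aph1b*, a second γ-secretase scaffold gene, fell by 0.74 on the log2 scale in WT, and *Psenen* fell by 0.84 in *Gde2*KO. Of 20 regulators 3 rose and 1 fell in WT, and 2 rose in *Gde2*KO. *Tspan15*, another tetraspanin that carries ADAM10, fell from 751 ± 81.1 to 423 ± 34.4 normalized counts in WT (log2 fold change -0.82, limma adjusted p = 0.00302), while *Rhbdf2*, which brings ADAM17 to the surface, rose from 35.5 ± 8.4 to 76.6 ± 12.2 (1.11). *Timp1*, a metalloprotease inhibitor gene, rose in both genotypes (0.76 and 0.74). *Tspan10* was called in both but was near 0 at 4 months (0 to 3.0 normalized counts, against 9.3 to 64.9 at 19 months), and no fold is given. *Lrp1b* fell in WT (-1.06), as did *Serpina3n* (-1.99), whose wide spread within 4-month WT is given above, and *Mmp9* rose (1.16). The list medians with age ran from -0.17 to 0.24 in WT (all genes -0.07) and from -0.25 to 0.09 in *Gde2*KO (all genes -0.21).

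The genes whose values followed a member most closely over the 12 libraries were found among 12972 genes with a mean of at least 100 normalized counts, by the root mean square difference of log2 values centred on each gene's mean. For *App* they were *Fto* (0.034), *Slc35a4* (0.037) and *Meaf6* (0.042), where the median gene differed by 0.243. For *Adam10* they were *Gcc2* (0.031), *Smc3* (0.038) and *Avl9* (0.044), and for *Bace1* *Diaph1* (0.044), *Ap1g1* (0.053) and *Zfyve1* (0.058). These values describe likeness over libraries that share depth, age and genotype, and say nothing of function.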

How the data were processed

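The authors sequenced polyadenylated RNA (NEBNext Ultra II RNA kit) and, per the labels and the study's methods, quantified reads against the GRCm38 transcriptome with kallisto and normalized them in sleuth (versions not given in the sources used here). The submitters' processing notes also name bcl2fastq 2.17, Trimmomatic 0.36 and STAR 2.5.2b. The deposited values are signal rather than raw counts: estimated counts per transcript divided by a size factor of the library, and TPM divided by a size factor. Between 46.7% and 62.9% of gene values in a library came out as whole reads within 0.01, so no count model was used, and precision is limited by depth as given in the report.

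Transcripts were summed to 36047 genes with the authors' own transcript table, leaving out 1673 transcripts without a gene (0.541% to 0.605% of normalized counts). Groups came from the labels. Genes with at least 5 normalized counts in at least 47% of libraries were tested on log2(value + 0.5), so fold changes are on that scale and understate those of low genes, with limma 3.58.1 (trend, R 4.3.3) and Benjamini-Hochberg adjustment over all genes. Each genotype comparison used the 6 libraries of its age, and the age comparisons and the interaction used all 12. A call needed adjusted p under 0.1 and a natural-log fold change beyond 0.5, or adjusted p alone for the interaction. Transcript usage was tested with diffSplice on transcripts with a mean of at least 5 normalized counts. On simulated data its F test made false calls in excess when transcripts of a gene differed in spread. Exon shares were compared by two-sided exact permutation tests (scipy 1.17.1), adjusted over 18 tests. Positions and exon sequences came from GENCODE vM21 transcripts on GRCm38.

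The members and lists were chosen with earlier results of these data known. The named genes are the members, *Gdpd5*, *Reck*, list genes called in any comparison, the 3 list genes of smallest p in each genotype comparison, and the 3 nearest patterns of *App*, *Adam10* and *Bace1*. Of 21 regulators 1 was not in the table. Replicate numbers did not pair the 4-month libraries (correlations of deviations 0.060, 0.007 and -0.048), and the 19-month columns carry no number. Alternatives changed the pseudocount, filter, scaling, unit, variance model, library weights, threshold and libraries. A few genes of these pathways are not reported here.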

Additional observations from a re-analysis of the deposited data

How the results depend on the processing

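No genotype difference of the 9 genes at 4 or 19 months reached the call under any alternative. With library weights 5 members passed the adjusted p alone at 4 months, *App* (0.28), *Aplp1* (0.29), *Aplp2* (0.30), *Ncstn* (0.15) and *Aph1a* (0.15), with adjusted p of 0.0017 to 0.025. Over all comparisons 659 of 738 values kept their direction and their side of the threshold. Of the others 72 turned in sign, with a size of at most 0.22 (log2), and 7 passed where the main value had not. Those 7 were the interaction of 4 members with library weights (4 called in place of 0, and a fit whose weights did not reach their convergence tolerance in some runs), and the age differences with the adjusted p as the only criterion (2 members in WT and 1 in *Gde2*KO). Log2 fold changes with age ran from -0.41 to -0.32 for *Adam10* in WT (adjusted p 3.51e-05 to 0.0858) and from -0.39 to -0.16 in *Gde2*KO (3.28e-05 to 0.130). *Aplp2* in WT kept an adjusted p under 0.1 in 9 of 15 alternatives. The replicate block called 0 members and 21 genes, against 24, at 4 months, and 97 against 122 genes for usage, and changed no call of a member. The number of genes called moved with the libraries: at 4 months it was 5 to 2934 against 24 (1510 without WT 3, 5 without *Gde2*KO 3), at 19 months 9 to 77 against 18, for the interaction 5 to 8744 against 9 (2029 without 4-month WT 3), for age in WT 1326 to 5279 against 2565, for age in *Gde2*KO 1096 to 6053 against 2224, and for usage 83 to 659 against 122 (659 without 4-month *Gde2*KO 2) and 13 to 122 against 21. None of 178 usage values of members met both criteria. *Psen2* at 19 months had an adjusted p of 0.0514 without both shallow libraries and 0.0939 without *Gde2*KO A, and *App* at 4 months 0.0771 with transcripts of a mean of at least 20, all with no shift above 10 points. The causes were not tested.

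Signs that turned in the 4-month genotype difference were those of *Adam10* (-0.049) and *Ncstn* (-0.033) with median-of-ratios scaling, of *Adam10* (-0.0065), *Adam17* (-0.044) and *Ncstn* (-0.025) with TPM, of *Adam17* (-0.016), *Bace1* (0.057) and *Psen2* (0.0073) with library weights, and of *Bace1* (0.063), *Psen2* (0.079) and *Ncstn* (-0.0051) without WT 1 and 2. At 19 months they were those of *Bace1* (-0.025) and *Ncstn* (-0.022) with TPM, of *Psen2* (0.14) with library weights, and of *App* (-0.019) and *Psen2* (0.12) without the shallow libraries. In the interaction they were *Aplp1* (0.072), *Adam17* (0.11), *Psen2* (0.051) and *Ncstn* (0.12) with median-of-ratios scaling, *Aplp1* (0.0095), *Adam17* (0.22), *Psen2* (0.0082) and *Ncstn* (0.0036) with TPM, *Adam17* (0.13) and *Psen2* (0.11) with library weights, and *Adam17* (0.082) and *Psen2* (0.17) without the shallow libraries. With age they were *Aph1a* in WT with TPM (-0.0040), and in *Gde2*KO *Aplp1* (0.011), *Bace1* (0.12) and *Psen2* (0.020) with median-of-ratios scaling, *Bace1* (0.056) and *Psen2* (0.0056) with TPM, *App* (-0.11) and *Aplp2* (-0.065) with library weights, and *App* (-0.0058), *Bace1* (0.0097) and *Psen2* (0.078) without the shallow libraries. On normalized counts the 4-month difference was 0.388 points for *App* exon 7 and -0.501 for *Adam17* exon 7.

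Leaving out 1 library at a time, values that crossed 0 ranged at 4 months from -0.0079 to 0.11 (*Adam10*), -0.092 to 0.027 (*Bace1*) and -0.12 to 0.074 (*Psen2*). At 19 months the ranges were -0.0051 to 0.038 (*App*), -0.0044 to 0.11 (*Bace1*) and -0.24 to 0.10 (*Psen2*). For the interaction they were -0.18 to 0.014 (*Aplp1*), -0.029 to 0.087 (*Adam10*), -0.10 to 0.10 (*Adam17*), -0.19 to 0.15 (*Psen2*) and -0.050 to 0.040 (*Ncstn*), and for age in *Gde2*KO -0.089 to 0.064 (*App*), -0.043 to 0.16 (*Adam17*), -0.11 to 0.027 (*Bace1*) and -0.27 to 0.078 (*Psen2*). Exon differences ranged from -0.869 to 0.424 points (*App* exon 7 at 4 months), -0.013 to 0.752 (*App* exon 7 at 19 months), -0.576 to 0.149 (*App* exon 8 at 19 months), -0.064 to 0.558 (*App* exon 15 at 19 months), -1.64 to 2.06 (*Adam17* exon 7 at 4 months) and -1.16 to 2.61 (*Adam17* exon 7 with age in WT), and the number of exon differences without overlap from 3 to 5, against 3. The values of *Psen2* and *Adam17* rest on as few as 42 and 68.2 estimated reads in a 19-month library.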
